A study of Mus musculus with 4 samples.

Results

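The Cyp2c family of cytochrome P450 genes was described in mouse liver from an array study that crossed loss of catalase, an enzyme of peroxisomes that removes hydrogen peroxide, with a high-fat diet. The list held 10 genes, Cyp2c29, Cyp2c37, Cyp2c38, Cyp2c39, Cyp2c40, Cyp2c44, Cyp2c50, Cyp2c54, Cyp2c55 and Cyp2c70, and its members were found by matching each probe's accession to RefSeq. In this way 9 of the 10 genes were matched to 13 probes, out of 20886 named genes and 39429 probes in all, and no probe was matched to Cyp2c40. RefSeq lists Cyp2c44 under the symbol Cyp2c23. All 9 matched members were well above background on all 4 arrays by the scanner's own flag.

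The 4 arrays carried liver RNA of male mice, 1 array for each group. The groups were wild-type mice on a normal diet with 18% of calories from fat, wild-type mice on a high-fat diet with 60.3% of calories from fat, and catalase knockout mice on each of these diets. Both diets were eaten for 11 weeks, from 29 to 40 weeks of age. The strain, the way the knockout was made and whether a sample was 1 animal or a pool are not given in the labels, so no value below has a replicate, and the p-values of the model described below measure only the spread between these 4 samples.

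Cytochrome P450 enzymes of the Cyp2c family sit in the endoplasmic reticulum of hepatocytes, where they oxidise drugs, steroids and fatty acids with electrons passed on by cytochrome P450 oxidoreductase. Several turn arachidonic acid into epoxyeicosatrienoic acids, signalling lipids that soluble epoxide hydrolase then inactivates. Their transcription in liver depends on HNF4A, and several members are induced through the drug receptors CAR and PXR. All but Cyp2c44 lie in a cluster on mouse chromosome 19, and they are close relatives, so a probe for one member may also bind RNA of another. Probe sequences were not used here, and the part of such binding in the values below was not tested.

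Values are scaled log2 signals: log2 of the scanner's processed signal minus the 75th percentile of the same array, so that 0 is the level of the probe at that percentile. Unless it is named SE, the value after ± is an error that the scanner software assigns to each spot, combined over both arrays, and it covers the spots and not the animals. A gene is said to have risen or fallen when it differed by 2-fold or more between 2 arrays and was above background on both. A gene above background on only 1 of them is also counted where the bound on its difference, described under processing, is 2-fold or more. Genes counted as tested were above background on at least 1 of the 2 arrays. The rule is a rule of size without a test, and levels of different probes are not compared with each other. As a check of the labels, the brighter of 2 Cat probes had a scaled log2 signal of 4.89 and 4.75 in wild type on normal and high-fat diet and of 1.13 and 0.95 in the knockout. Between 60.3% and 63.9% of probes were well above background on each array, and 0 spots were saturated.

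The family was lowest in the knockout liver on the high-fat diet. There 8 of the 9 members fell against the knockout on normal diet, where 1.64% of the 14905 genes tested fell. The members were chosen with earlier results of these data known, so this count is no independent evidence. In wild type 1 member, Cyp2c55, fell on the same diet, against 2.31% of 14636 genes, although all 9 values were negative. Between genotypes 0 members rose or fell on either diet. On the normal diet 2.5% of 14702 genes were lower and 1.4% higher in the knockout, and on the high-fat diet 1.59% of 14844 genes were lower and 2.51% higher. None of the members rose in any of the 4 comparisons by its brighter probe. Of all genes tested, 1.78% and 4.22% rose on the high-fat diet in wild type and knockout. These shares are so small that 0 of 9 members is no result about the family.

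**Figure D1:**
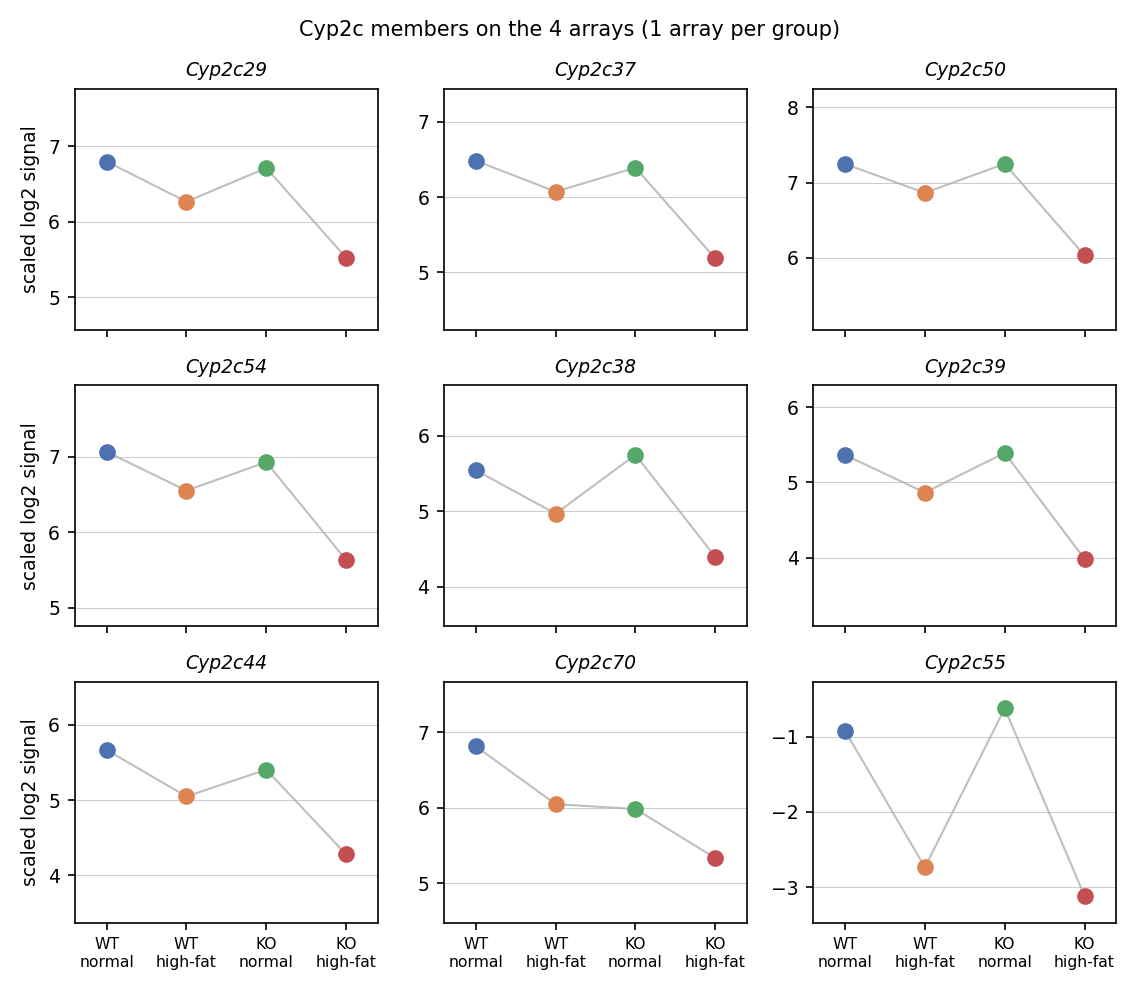
Scaled log2 signal (y axis, a span of 3.2 log2 units in each panel) of 9 Cyp2c genes on the 4 arrays (x axis, WT wild type, KO catalase knockout), 1 point per array and the brightest probe of each gene. For 8 of the 9 genes both normal-diet arrays were above both high-fat arrays, and for all 9 the lowest point was the knockout on the high-fat diet.

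Cyp2c29, the main phenobarbital-inducible member and an arachidonic acid epoxygenase of pericentral hepatocytes, was read by 1 probe printed on 10 spots of each array. In wild type its scaled log2 signal was 6.80 on normal diet and 6.27 on high-fat diet, and in the knockout it was 6.71 and 5.52. On the high-fat array the reading was thus lower by 0.53 ± 0.06 on the log2 scale in wild type, which is 1.45-fold. In the knockout Cyp2c29 fell by 1.19 ± 0.07, which is 2.28-fold. The 10 spots show how closely an array repeats itself. On normal diet they ran from 6.68 to 6.90 in wild type and from 6.63 to 6.85 in the knockout. With high fat they ran from 6.15 to 6.34 and from 5.43 to 5.62, with an SD over spots of 0.064 to 0.073. The spots of the 2 normal-diet arrays overlapped, and those of each high-fat array overlapped with no other array. Spots of 1 array are not replicate animals.

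**Figure D2:**
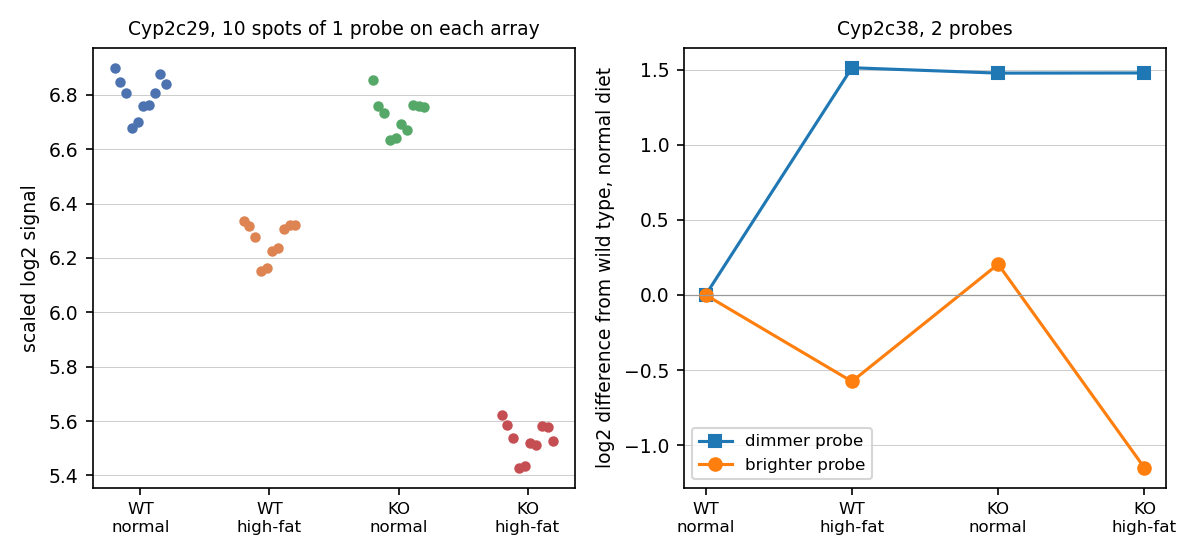
Left, scaled log2 signal (y axis) of the 10 Cyp2c29 spots on each array, 1 point per spot. Right, log2 difference of each of 2 Cyp2c38 probes from the wild-type normal-diet array (y axis), where the dimmer probe sits near 1.5 on the other 3 arrays and the brighter probe at -1.15 in the knockout on high-fat diet.

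Cyp2c37, Cyp2c50 and Cyp2c54 are neighbours in the cluster and oxidise arachidonic acid. Cyp2c37 had scaled log2 signals of 6.48 and 6.07 in wild type on normal and high-fat diet, and of 6.39 and 5.19 in the knockout. The 2 normal-diet arrays lay closer together than the scanner error, and the knockout on high-fat diet stood below the other 3. The diet difference was -0.41 ± 0.20 in wild type, and Cyp2c37 fell by 1.20 ± 0.20 in the knockout.

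Cyp2c50 had scaled log2 signals of 7.25 and 6.86 in wild type on normal and high-fat diet, and of 7.25 and 6.03 in the knockout. Its normal-diet arrays differed by 0.0029 ± 0.20. On the high-fat diet it differed by -0.38 ± 0.20 in wild type, the smallest of the 9 differences, and fell by 1.22 ± 0.20 in the knockout. Cyp2c54 had scaled log2 signals of 7.07 and 6.55 in wild type and of 6.93 and 5.63 in the knockout, and fell by 1.30 ± 0.20 on the high-fat diet in the knockout. Its other 2 probes differed there by -1.32 and -1.52, and the other Cyp2c37 probe by -1.24, so for these genes all probes gave the same direction and size class.

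Cyp2c44, an epoxygenase of liver and kidney that lies apart from the main cluster with 101 other genes between it and Cyp2c70, had scaled log2 signals of 5.67 and 5.05 in wild type on normal and high-fat diet, and of 5.40 and 4.28 in the knockout. It fell by 1.12 ± 0.20 on the high-fat diet in the knockout, with -0.62 ± 0.20 in wild type. Its 4 levels were each further from the next than the scanner error. Cyp2c39, known as a retinoic acid hydroxylase, had 5.36 and 4.87 in wild type and 5.39 and 3.99 in the knockout. Of the 7 epoxygenase and retinoid members described in this and the neighbouring paragraphs it had the largest diet difference in the knockout, where it fell by 1.40 ± 0.20.

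Cyp2c38, which forms epoxides of arachidonic acid, was read differently by its 2 probes. The brighter probe had scaled log2 signals of 5.54 and 4.97 in wild type on normal and high-fat diet, and of 5.75 and 4.39 in the knockout, and followed the other members, with a fall of 1.36 ± 0.20 on the high-fat diet in the knockout. The dimmer probe had -2.73, -1.21, -1.25 and -1.25 in the same order. It was low on the wild-type normal-diet array alone, by 1.51 ± 0.21 against wild type on high-fat diet and by 1.48 ± 0.21 against the knockout on normal diet, and on the high-fat diet the genotypes differed by -0.03 ± 0.21. With both probes averaged, the diet difference became 0.47 in wild type and -0.68 in the knockout, so the fall of Cyp2c38 holds for the brighter probe alone. Both probes carry the accession of Cyp2c38, and which of them reads its transcript, as distinct from that of a relative, was not tested.

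Cyp2c70, which hydroxylates bile acids to the muricholic acids of mice, stood apart from the other members. Its scaled log2 signal was 6.81 and 6.05 for wild type on the normal and the high-fat diet, and 5.98 and 5.33 for the knockout. The wild-type normal-diet array was the highest, and the next 2 levels lay within the scanner error of each other. Each single step was below 2-fold: -0.77 ± 0.20 and -0.65 ± 0.20 for diet in wild type and knockout, and -0.83 ± 0.20 and -0.71 ± 0.20 for the knockout on normal and high-fat diet. By the brighter probe of each gene, Cyp2c70 was the single member with a genotype difference on normal diet beyond 0.30 on the log2 scale, and the single member whose diet difference was not larger in the knockout. The dimmer Cyp2c38 probe also met both descriptions.

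Cyp2c55, which oxidises arachidonic acid, is abundant in colon and is induced in liver through CAR and PXR. It had scaled log2 signals of -0.92 and -2.73 in wild type on normal and high-fat diet, and of -0.63 and -3.11 in the knockout. In each genotype it was the member with the largest diet difference. It fell by 1.81 ± 0.21 in wild type, or 3.51-fold, and by 2.49 ± 0.21 in the knockout, or 5.60-fold. Between genotypes it differed by 0.30 ± 0.20 on normal diet and by -0.38 ± 0.22 on high-fat diet. Cyp2c55 was a dim reading, and with another background correction its diet difference was -1.46 in wild type and -1.89 in the knockout. Of 5 intestinal markers, Vil1, Cdx2 and Muc2 were not well above background on any array. The other 2 were above it on all 4: Fabp2, a fatty acid binding protein gene that rose by 1.31 ± 0.20 with diet in wild type and differed by 0.68 ± 0.20 in the knockout, and Lgals4, which differed by 0.07 ± 0.20 and 0.31 ± 0.20. The part of intestinal RNA in the Cyp2c55 values was not tested.

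Because the members moved together, upstream sequence is shown for 6 of them, from RefSeq on build GRCm38.p6, 5′ to 3′ on the gene's own strand. RefSeq's promoter table held 9 start sites of 8 listed genes, 2 of them for Cyp2c39. Capitals mark matches, on either strand, to AGGTCA (bound by nuclear receptors), TGTTTAC (forkhead) or AGAACA (bound by the glucocorticoid receptor). The search covered the 250 bases before each start site in that table. Where RefSeq places the gene's outermost start further upstream, the printed run ends there, so it stops 41 bases before the table's start site for Cyp2c29, 28 for Cyp2c38 and 79 for Cyp2c55. A match is a run of letters and not a measured binding site.
Cyp2c29, chr19:39286835-39287043, plus strand, 209 bases: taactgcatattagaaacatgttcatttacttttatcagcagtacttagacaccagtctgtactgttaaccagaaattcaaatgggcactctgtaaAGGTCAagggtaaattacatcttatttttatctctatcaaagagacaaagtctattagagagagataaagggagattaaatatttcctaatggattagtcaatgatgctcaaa
Cyp2c37, chr19:39992174-39992423, plus strand, 250 bases: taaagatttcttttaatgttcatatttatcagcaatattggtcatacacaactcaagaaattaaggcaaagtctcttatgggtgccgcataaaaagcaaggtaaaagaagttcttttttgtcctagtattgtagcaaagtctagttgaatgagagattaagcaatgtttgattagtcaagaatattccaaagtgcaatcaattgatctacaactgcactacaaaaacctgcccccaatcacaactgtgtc
Cyp2c50, chr19:40089429-40089678, plus strand, 250 bases: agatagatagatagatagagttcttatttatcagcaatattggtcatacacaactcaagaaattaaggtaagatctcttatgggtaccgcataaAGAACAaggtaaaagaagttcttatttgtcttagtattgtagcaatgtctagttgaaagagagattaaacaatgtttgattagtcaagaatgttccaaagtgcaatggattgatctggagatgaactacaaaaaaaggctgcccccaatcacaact
Cyp2c38, chr19:39463104-39463325, minus strand, 222 bases: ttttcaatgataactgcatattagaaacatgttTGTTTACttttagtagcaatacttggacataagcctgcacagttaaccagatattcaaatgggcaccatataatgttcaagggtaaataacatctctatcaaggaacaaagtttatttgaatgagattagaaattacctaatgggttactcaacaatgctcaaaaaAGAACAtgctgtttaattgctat
Cyp2c70, chr19:40187287-40187536, minus strand, 250 bases: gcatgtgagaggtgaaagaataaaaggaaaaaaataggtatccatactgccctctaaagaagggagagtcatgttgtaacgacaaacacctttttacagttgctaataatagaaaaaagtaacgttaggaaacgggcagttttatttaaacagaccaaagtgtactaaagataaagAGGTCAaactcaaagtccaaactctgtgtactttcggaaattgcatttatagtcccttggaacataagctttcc
Cyp2c55, chr19:39006769-39006939, plus strand, 171 bases: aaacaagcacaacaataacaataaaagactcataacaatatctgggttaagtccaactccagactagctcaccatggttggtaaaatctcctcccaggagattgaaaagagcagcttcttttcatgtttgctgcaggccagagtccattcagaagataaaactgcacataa

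Cyp2c37 and Cyp2c50 had the most similar upstream sequences, identical at 215 of 255 aligned positions (84.3%) over 250 bases. Cyp2c38 and Cyp2c29 were identical at 68.8% of positions, and Cyp2c70 had from 49.2% to 53.1% with the others, much like Cyp2c55, with 50.2% to 55.3%. Among the 9 start sites AGGTCA occurred in 3, against 14.0% of 32851 promoters of the same 250 bases, AGAACA in 3 against 16.1%, and TGTTTAC in 3 against 3.17%. The 3 TGTTTAC matches were in Cyp2c38 and both starts of Cyp2c39, whose sequences were identical to that of Cyp2c38 at 75.8% and 71.0% of positions, so they are not separate cases. The AGAACA matches were in Cyp2c50, in Cyp2c38 and in the Cyp2c39 start with 71.0%. Those of Cyp2c38 and Cyp2c39 are likewise not separate cases. GTTAAT, bound by HNF1 factors, occurred in 1, that of Cyp2c40, against 6.43%. The direct repeats of AGGTCA spaced by 1 base or 4 bases, which HNF4A and CAR are known to bind, occurred in 0 of the 9, against 0.0335% and 0.0152% of all promoters. The AGGTCA matches were those of Cyp2c29, Cyp2c70 and 1 start of Cyp2c39, so these letters were found before Cyp2c29, which fell in the knockout, and before Cyp2c70, which did not pass 2-fold.

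Set beside all genes, the members as a group moved most with diet in the knockout. Their median log2 difference was -1.22 there, against -0.07 over the 13879 genes measured on both arrays, and 0.627% of those genes lay at or below the members' median. In wild type the members' median was -0.53, against -0.02 over 13733 genes, with 5.96% at or below it. The 7 members other than Cyp2c55 and Cyp2c70 lay close together, from -0.62 to -0.38 in wild type and from -1.40 to -1.12 in the knockout. The separation between the members and the bulk of genes was thus present in both genotypes and wider in the knockout. It was smaller after scalings that act on signal level. After quantile normalization the members' median was -0.41 in wild type and -0.98 in the knockout, and after cyclic loess -0.43 and -0.98. The 10 general hepatocyte markers had a median of -0.29 in the knockout under the main scaling. The part of a shift with signal level in the separation was not tested.

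**Figure D3:**
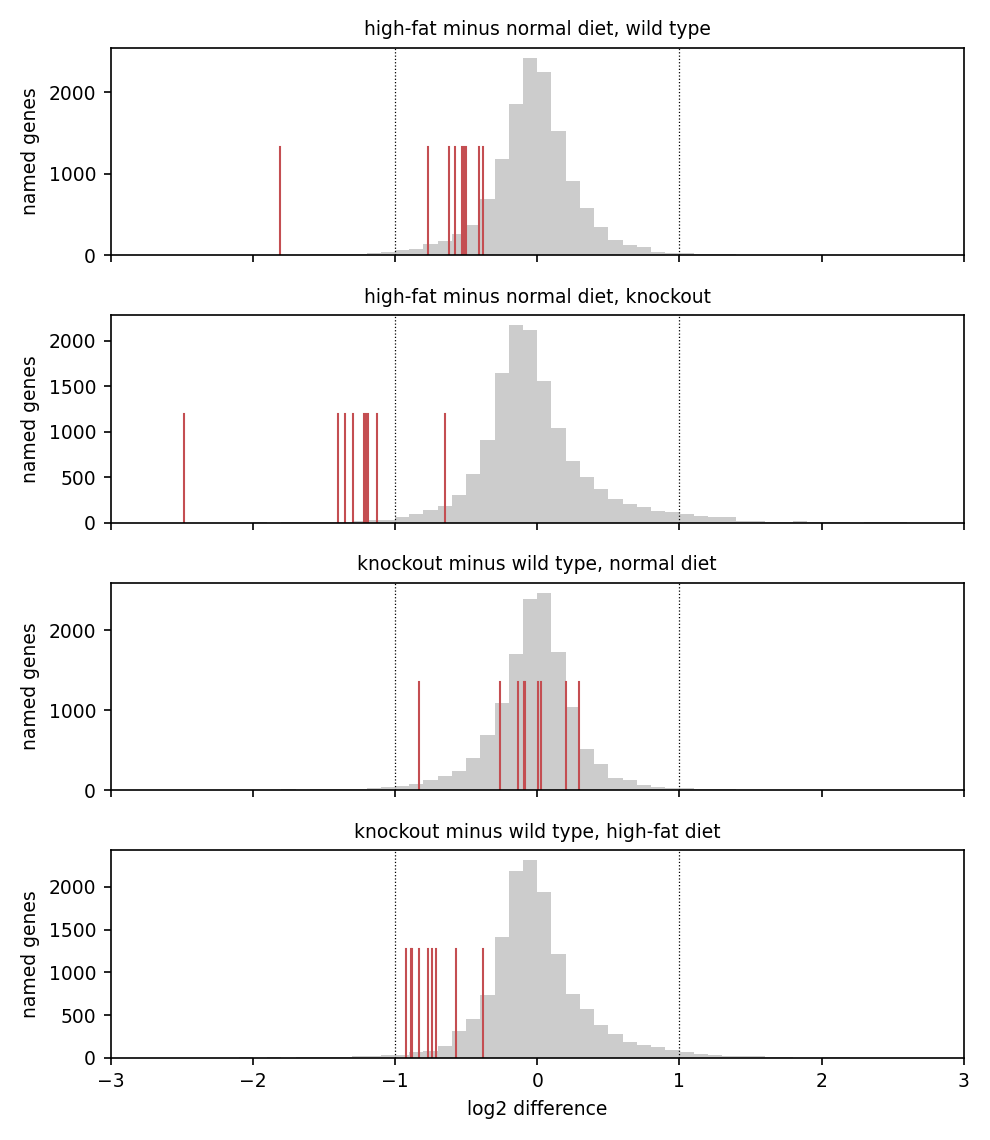
Number of named genes measured on both arrays (y axis, grey bars of 0.1 log2 units) by log2 difference (x axis) in each of the 4 comparisons, with the 9 Cyp2c genes as red lines and 2-fold as dotted lines. With the high-fat diet in the knockout 8 of 9 lines lie left of the 2-fold line, and between genotypes on normal diet they lie on both sides of 0.

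The comparison of the 2 diet differences, which share no array, asks whether diet moved the family more in the knockout. The diet difference was more negative in the knockout for 8 of 9 members, where 55.6% of the 13550 genes above background on all 4 arrays were more negative. Knockout minus wild type, it had a median of -0.78 over the members and of -0.04 over all these genes. The largest was that of Cyp2c39, -0.91 ± 0.29, and the single positive one was that of Cyp2c70, 0.12 ± 0.29. With 1 array per group this difference has no test.

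**Figure D4:**
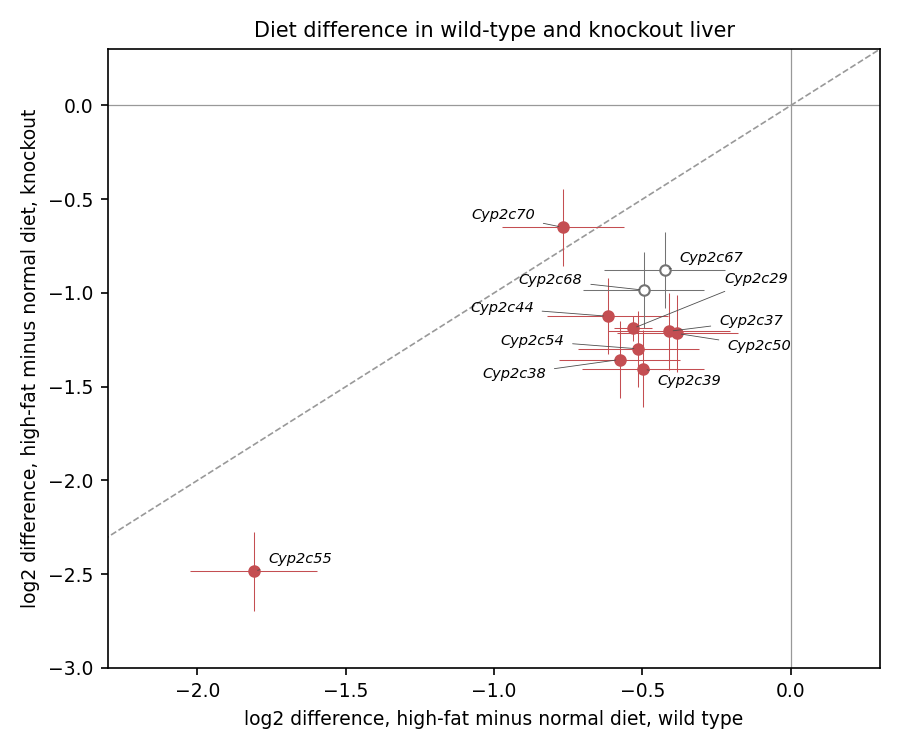
Log2 difference between high-fat and normal diet in wild type (x axis) and in knockout (y axis) for 9 Cyp2c members (red) and for Cyp2c67 and Cyp2c68 (open), with scanner errors as bars and the line of equal differences dashed. Cyp2c70 lies above that line and the other 10 genes below it.

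Between genotypes on normal diet the members had a median of -0.09, against -0.01 over 13779 genes, with 5 negative and 4 positive values. On the high-fat diet all 9 values were negative, from -0.92 for Cyp2c54 to -0.38 for Cyp2c55, with a median of -0.77 against -0.04 over 13828 genes. The array of the knockout on high fat is used here and in the diet comparison of the knockout, so these are not independent. Scaling to each array's median moved all genes by 0.14 on normal diet and turned the sign of Cyp2c29, Cyp2c37 and Cyp2c54, and another background correction that of Cyp2c50, so no direction is given for these 4 members between genotypes on that diet.

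The single test that the design allows is an additive model of diet and genotype, fitted with limma over 14346 genes with Benjamini-Hochberg adjustment. It called 0 genes for diet and 0 for genotype at an adjusted p of 0.05, with 1425 genes (9.93%) and 1041 genes (7.26%) at an unadjusted p under 0.05, so 0% of genes were called in either direction. For diet, 8 of the 9 members had an unadjusted p under 0.05 in limma, and their adjusted p ran from 0.406 for Cyp2c55 to 0.505 for Cyp2c50. The averaged diet difference was -2.15 ± 0.22 (SE) for Cyp2c55 and -0.86 ± 0.22 (SE) for Cyp2c29. For genotype, Cyp2c70 alone had an unadjusted p under 0.05, 0.0063 with an adjusted p of 0.644 in limma and a difference of -0.77 ± 0.12 (SE). The model's 1 residual degree of freedom is the interaction, which it counts as error.

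How firmly the 2-fold count stands in the knockout depends on the normalization. After quantile normalization and after cyclic loess, 4 of the 9 members fell with diet in the knockout, where 1.78% and 1.53% of 14905 genes fell, and Cyp2c29, Cyp2c37, Cyp2c44 and Cyp2c50 lay between -0.98 and -0.92. Cyp2c38, Cyp2c39, Cyp2c54 and Cyp2c55 kept their fall under both, and all 9 values stayed negative. At 1.5-fold in place of 2-fold, 3 members were lower with diet in wild type, against 6.51% of all genes, and 9 in the knockout, against 5.68%. Between genotypes 1 member was lower by 1.5-fold on normal diet, against 6.65%, and 7 on high-fat diet, against 4.36%.

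The members also differed in how alike their profiles were. Over the 4 arrays, after each gene's mean was taken off, the root mean square difference between 2 profiles ran from 0.04 to 0.18 log2 units among the 21 pairs of the 7 members other than Cyp2c55 and Cyp2c70. Between Cyp2c70 and those 7 it ran from 0.22 to 0.39. With Cyp2c67 and Cyp2c68 added the ranges overlapped, from 0.04 to 0.24 among the 9 genes and from 0.20 to 0.39 with Cyp2c70. Cyp2c55 was at 0.60 to 0.83 from all of them. These distances rest on 4 arrays that all the genes share.

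Among 13550 genes above background on all 4 arrays, the non-Cyp2c profiles most like that of each of the 8 members past 2-fold in at least 1 comparison were named. Cth, which encodes the cysteine-forming enzyme cystathionine gamma-lyase, was among the 3 nearest to Cyp2c37, Cyp2c39 and Cyp2c54, at 0.10, 0.05 and 0.07 log2 units. Cps1, the first enzyme of the urea cycle, was among the nearest to Cyp2c37 at 0.09, and Gna14 was nearest to both Cyp2c37 and Cyp2c54 at 0.08 and 0.05. Sucnr1, the succinate receptor gene, was near Cyp2c38 and Cyp2c39, both at 0.07, Coq8a was nearest to Cyp2c38 at 0.06, Gm11437 to Cyp2c29 at 0.07, Abca8a to Cyp2c44 at 0.07 and Gprasp2 to Cyp2c50 at 0.10. Also among the 3 nearest were Gm11437 for Cyp2c39, Cyp2c50 and Cyp2c54, and Olfr394 for Cyp2c29 and Cyp2c44. The rest were Mmab for Cyp2c29, Fbxw13 for Cyp2c38, Gm10024 for Cyp2c44 and Bdh2 for Cyp2c50. For Cyp2c55 the nearest were 3 other P450 genes, Cyp1a2 at 0.24, Cyp3a16 at 0.29 and Cyp3a41b at 0.31.

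Of the other Cyp2c genes, Cyp2c67 and Cyp2c68 lie between Cyp2c38 and Cyp2c40 in the cluster and gave values like those of the members. Cyp2c67 had scaled log2 signals of 6.33 and 5.90 in wild type on normal and high-fat diet and of 6.04 and 5.17 in the knockout, a diet difference of -0.88 ± 0.20 in the knockout. Cyp2c68 differed there by -0.99 ± 0.20. Both missed 2-fold. Cyp2c65 was not well above background on any array, and Cyp2c66 was above it on the knockout high-fat array alone.

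The regulators and partners of the family did not move by 2-fold. Of 14 receptors and liver transcription factors, 0 rose or fell in any of the 4 comparisons, with medians of 0.24 and -0.16 for diet in wild type and knockout. Nr1i3, which encodes CAR, differed by 0.56 ± 0.20 for diet in wild type, by -0.13 ± 0.20 in the knockout and by 0.76 ± 0.20 between genotypes on normal diet. Nr1i2, which encodes PXR, differed by 0.63 ± 0.20, -0.19 ± 0.20 and 0.48 ± 0.20 in the same order. Hnf4a differed by -0.35 ± 0.20 for diet in the knockout. Of 6 electron donor and haem synthesis genes 0 rose or fell, and Por, the oxidoreductase, differed by 0.52 ± 0.20 and 0.05 ± 0.20 for diet in wild type and knockout.

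Other targets of CAR and PXR went both ways. Of 14 on the array, 3 rose and 3 fell with diet in wild type and 2 rose and 2 fell in the knockout. Of all genes tested, 1.78% rose and 2.31% fell in wild type, and 4.22% rose and 1.64% fell in the knockout. These shares also apply to the lists in the next paragraphs, where a count of 1 gene is no result about its list. Cyp2b10, the standard marker of CAR activity, rose by 4.42 ± 0.20 with diet in wild type, differed by 0.68 ± 0.20 in the knockout and rose by 4.09 ± 0.20 between genotypes on normal diet. Its levels were -0.04 in wild type on normal diet and 4.37, 4.05 and 4.73 on the other 3 arrays. The dimmer Cyp2c38 probe was likewise low on the first array alone, while the brighter Cyp2c38 probe was not. Cyp4a14, which is not in this list, was low there too, at 1.47 against 5.60, 4.46 and 4.75. A link between these readings was not tested. Cyp3a11, the main PXR target, fell by 1.68 ± 0.20 and 1.54 ± 0.20 with diet in wild type and knockout, and the carboxylesterase gene Ces2a fell by 1.27 ± 0.20 and by 1.76 ± 0.20. Cyp2b13 was at least 78.1-fold higher with diet in wild type and rose by 1.61 ± 0.20 in the knockout.

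In the arachidonic acid pathway, of 24 genes on the array 3 rose and 1 fell with diet in wild type, and 1 rose and 2 fell in the knockout. Cyp4a14, a fatty acid hydroxylase, rose by 4.13 ± 0.20 in wild type and differed by 0.29 ± 0.20 in the knockout. Cyp4a12a, which makes the vasoactive lipid hydroxyeicosatetraenoic acid, fell by 1.98 ± 0.20 and 1.96 ± 0.20. Cyp4f14 differed by -0.32 ± 0.20 in wild type and fell by 1.49 ± 0.20 in the knockout, and between genotypes it fell by 1.31 ± 0.20 on the high-fat diet. Alox15 rose by a bound, at least 2.13-fold, in wild type. Ephx2, the soluble epoxide hydrolase, differed by 0.08 ± 0.20 and 0.11 ± 0.20, and Cyp2j5, an epoxygenase of another family, by -0.12 ± 0.20 and -0.36 ± 0.20.

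Genes next to Cyp2c39 and Cyp2c70 in function were counted too. Of 14 genes of retinoic acid metabolism, 3 fell and 0 rose with diet in wild type, and 1 fell and 0 rose in the knockout. Cyp26a1, the main retinoic acid hydroxylase, fell by 1.57 ± 0.20 in wild type and differed by -0.50 ± 0.20 in the knockout, and Rdh11, a retinol dehydrogenase gene, fell by 1.23 ± 0.20 and 1.42 ± 0.20. Of 12 bile acid synthesis genes, 1 fell with diet in each genotype, Cyp7b1, which fell by 1.01 ± 0.20 and by 1.098 ± 0.20, and it was also lower by 0.97 ± 0.20 and 1.06 ± 0.20 in the knockout on normal and high-fat diet. The rate-limiting Cyp7a1 differed by -0.06 ± 0.20 and -0.85 ± 0.20 with diet.

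Several Cyp2c genes are known to differ between the sexes, and other sex-biased liver genes were counted. With diet in wild type, 8 of 11 male-biased genes were lower by 2-fold or more and 0 higher (median -1.22), and in the knockout 6 were lower and 0 higher (median -1.52 over 10 measured). Of all genes tested, 2.31% and 1.64% fell in wild type and knockout. Hsd3b5 fell by 1.74 ± 0.20 and 2.95 ± 0.20, and Slco1a1 by 1.08 ± 0.20 and 2.49 ± 0.20. Of 10 female-biased genes 5 rose and 0 fell in wild type, where 1.78% of all genes tested rose. In the knockout 4 rose and 1 fell, where 4.22% of all genes rose. Cyp2b9, Cyp2b13 and Cyp2a4 are also among the CAR and PXR targets, and Cyp4a14 is among the arachidonic acid genes. Of the male-biased genes, Cyp4a12a is also among the arachidonic acid genes and Cyp7b1 among the bile acid genes. The counts of these lists are thus not independent of each other. The male-biased list was selected with earlier results of these arrays known, as were the members and the other lists. Their counts are no independent evidence of direction.

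Markers of some other cell types moved with the low Cyp2c readings. With diet in the knockout, 7 of 11 markers of macrophages and Kupffer cells rose and 0 fell, where 4.22% of all genes tested rose. In wild type 0 of these markers rose or fell. Gpnmb, 1 of the 7, was above background on the knockout high-fat array alone and rose by a bound, at least 9.90-fold. The summed signal of the 11 markers, in units of each array's 75th percentile, was 42.5 and 50.7 for wild type on the normal and the high-fat diet, and 35.0 and 89.96 for the knockout. All 11 were above background on the last array and 10 on each of the others. Of 7 stellate cell and fibroblast markers 4 rose and 0 fell with diet in the knockout, with sums of 4.12, 5.68, 3.38 and 11.9 in the same order. Timp1, 1 of the 4, rose there by a bound, at least 16.1-fold. Of 3 neutrophil markers 2 rose and 0 fell with diet in the knockout, with sums of 1.52, 1.78, 0.892 and 4.55. In wild type 2 stellate markers also rose and 0 neutrophil markers did. Single markers of 4 other lists also rose with diet in the knockout, and 0 markers of these lists fell. Lyve1, 1 of 6 endothelial markers, rose by 1.497 ± 0.21, and Spp1, 1 of 5 cholangiocyte markers, by 2.20 ± 0.21. Cela1, 1 of 4 pancreas markers, rose by 1.76 ± 0.23, and Cfd, 1 of 4 adipocyte markers, by 3.59 ± 0.21. Lyve1 and Cfd also rose in wild type, by 1.82 ± 0.21 and 2.81 ± 0.20. The other 3 adipocyte markers were not above background on any array. With diet in the knockout 0 lymphocyte or erythroid markers rose or fell. All 4 lymphocyte and all 3 erythroid markers measured there had negative values. The part of these cells in the Cyp2c values was not tested, and in bulk liver fewer hepatocytes and less RNA per hepatocyte cannot be told apart.

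Hepatocyte markers moved less than the Cyp2c members. Of 10 general hepatocyte markers 1 fell with diet in the knockout, Cps1, which fell by 1.099 ± 0.20, and the median was -0.29, with summed signals of 3997, 3744, 3887 and 3128 in the order of arrays above. Alb differed by -0.28 ± 0.20. Of 10 pericentral markers, genes of the zone in which Cyp2c29 is expressed, 2 fell and 0 rose (median -0.31), and Cyp1a2 fell by 2.17 ± 0.20 and Oat by 1.04 ± 0.20. Of 8 periportal markers 2 fell and 0 rose (median -0.49), with Etnppl at -1.68 ± 0.20. The members' median of -1.22 in this comparison was thus lower than that of each of the 3 hepatocyte lists.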

How the data were processed

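Liver RNA of 4 groups was labelled with Cy3 and hybridised to 1 Agilent mouse array each. The deposited scanner files hold spot intensity from Feature Extraction 11.5.1.1, per the file headers, including a background-subtracted processed signal, and the deposited value table gives intensity per probe, within 1% of that signal for 99.7% of probes on each array. Per the series' design text the authors used GeneSpring GX 7.3. The medians of the value table were 79.87 and 75.87 for wild type on normal and high-fat diet and 72.38 and 89.16 for the knockout. It is therefore on a linear scale without centring, and with 1 colour it has no direction. All 4 arrays had 1 scan time, so no batch could be fitted.

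Control spots and spots with an outlier flag were left out, unless all spots of a probe were flagged. Spots were averaged as log2 and scaled to the 75th percentile. Accessions, without versions, were matched to RefSeq genes of GRCm38.p6, which named 27508 of 39429 probes. The array design names build mm9, so probes were matched by accession and not by coordinate. Gene positions in the RefSeq gene table were used for the order of the Cyp2c genes and the count of genes between Cyp2c70 and Cyp2c44. They also set where the printed upstream runs end. The probe with the highest mean signal stood for a gene. Where 1 array was below background, its value was the higher of its own signal and the lowest signal above background, written as "at least N-fold". The additive model used genes above background on at least 2 arrays.

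Tools were limma 3.58.1 in R 4.3.3, Python 3.11.15, numpy 2.4.6, pandas 2.3.3, Biopython 1.88 and matplotlib 3.10.9. The size rule and the model were tested on simulated data. Alternatives were 3 other scalings, another background correction, the value table, the mean of all probes, all spots, no background filter and a 1.5-fold rule. Named genes were all members, up to 4 of each list by largest difference, with regulators and pathway genes of known role added after their values were seen, and the 3 nearest profiles. The members and lists were chosen with earlier results of these data known.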

Additional observations from a re-analysis of the deposited data

Results flagged for a closer look

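By the brighter probe, Cyp2c38 and Cyp2c55 had opposite signs between genotypes on the 2 diets, with values above the scanner error of about 0.20. Knockout minus wild type, Cyp2c38 differed by 0.20 on normal diet, a value at its error, and by -0.57 on high-fat diet, while its dimmer probe gave 1.48 and -0.03. Cyp2c55 differed by 0.30 and -0.38, and with another background correction by 0.22 and -0.22, which is at its error. With 1 array per group the differences between diets were not tested.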

How the results depend on the processing

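Of 252 differences recomputed for the members under 7 other settings, 228 moved by less than the scanner error, 24 moved by more, and 0 that had passed 2-fold changed sign. The count of 228 is no measure of stability, because some settings could hardly move a value. The value table holds nearly the same signal, and keeping all spots could change Cyp2c29 alone. Averaging probes could change only Cyp2c37, Cyp2c38 and Cyp2c54. Signs changed for 5 smaller differences, 4 of them between genotypes on normal diet and the other that of Cyp2c38 for diet in wild type with its probes averaged. With diet in the knockout 4 members fell after quantile normalization and 4 after cyclic loess, against 8, and the other settings with the 2-fold rule gave 7 or 8 members. With a 1.5-fold rule, 3 members were lower for diet in wild type and 9 in the knockout, where 6.51% and 5.68% of all genes were, and between genotypes 1 was lower on normal diet and 7 on high-fat diet, where 6.65% and 4.36% of all genes were. Under median scaling the additive model called 1 member for diet, Cyp2c55, with an adjusted p of 3.4e-09 in limma, against 0.224 to 0.449 as the lowest member value under the other settings; it called 377 genes for diet and 219 for genotype, and limma's prior degrees of freedom were then infinite, against 1.95 to 2.82 elsewhere. The median difference of diet effects moved by less than the scanner error under all 7 settings. The planned background correction on mean signals was run on median signals, a choice made after seeing the data, since these scanner files give medians. No paired analysis was possible because each group has 1 array, and for the same reason no array could be left out. All matched members were well above background, but Cyp2c55 and the dimmer Cyp2c38 probe were the dimmest readings. Another background correction moved the diet differences of Cyp2c55 by more than the scanner error. They went from -1.81 to -1.46 in wild type and from -2.49 to -1.89 in the knockout.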
